A study of Mus musculus with 28 samples.

Results

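The DNA replication genes described here are 49 mouse genes, out of 24089 genes in the RNA-seq table. Their proteins copy DNA during S phase or act beside that, in its control, nucleotide supply or chromatin. The 49 genes were taken from a list of names drawn up with earlier results of these data known. Replication starts at origins, where the origin recognition complex together with Cdc6 and Cdt1 loads the Mcm helicase in an inactive form (licensing). Mcm10, Cdc45 and the GINS complex then turn the helicase on, primase and the polymerases copy the strands, the Pcna clamp and its Rfc loader hold the polymerases on DNA, and Fen1 and Lig1 finish the lagging strand. Most of these genes are transcribed as cells pass from G1 into S phase, under E2F factors, and an activated T cell switches them on before it divides. By role the 49 genes were grouped as 11 licensing genes, 7 genes of helicase activation, 9 genes of polymerases and primase, and 10 genes of the clamp, its loaders and single-strand binding. The rest were 2 genes of flap removal and ligation, 6 genes placed under nucleotide supply, *Ung* among them, and 4 genes that act with chromatin or histone mRNA.

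Naïve CD4+ CD62L+ T cells from spleen and lymph nodes of WT and KO mice were stimulated through the TCR with plate-bound anti-CD3 and soluble anti-CD28, and were cultured without added cytokine (control), with TGF-β, with IL-4, or with both (TGF-β + IL-4, the Th9 condition). KO stands for loss of *Tgfbr1*, the TGF-β type I receptor; per the study's methods *Tgfbr1* f/f *Ert2-cre*+ mice, on a C57BL/6 background, adult and of both sexes, lost it after tamoxifen, and the promoter that drives this Cre is not given in the sources used here. Where oil took the place of tamoxifen, such mice with intact *Tgfbr1* served as WT. The methods also list *Tgfbr1* f/f *Cd4-cre*+ mice, and the titles of the RNA-seq libraries do not name the line. RNA-seq held 24 libraries, 3 for each of the 8 conditions, numbered 1 to 3 with no statement that a number is one animal, and DNase-seq held 4, 1 each for control and TGF-β + IL-4 in each genotype. For DNase-seq the labels call the WT libraries oil-treated and the KO libraries tamoxifen-treated, so genotype and tamoxifen cannot be told apart there. The labels of the RNA-seq libraries name neither treatment. If their mice were treated in the same way, genotype and tamoxifen cannot be told apart in any RNA-seq comparison of KO with WT either.

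The order of the RNA-seq columns needed a choice that bears on every expression value below. Read counts of 8 WT libraries in the supplementary data were compared with each column by which genes were at 0. All 8 matched the column at their place in library-number order, with at least 99.8% of genes in the same state against at most 85.9% for the next column, but only 2 matched the column that carries their heading and 6 carried the heading of another library. The columns were therefore read by place. The other 4 WT and all 12 KO columns could not be checked in this way, and only 4 of 24 columns have the same library by place and by heading. With the columns read as headed, none of the 14 comparisons had a call among the 49 genes. That reading also left few genes of any kind apart between WT TGF-β + IL-4 and WT control. Of all genes tested, 1.08% were lower and 2.74% higher in every library, against 23.8% and 30.6% by place. The share of all genes called as headed is not given here.

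Read by place, *Tgfbr1* itself was at 3.02, 3.25 and 3.31 RPKM (reads per kilobase, scaled to the number of mapped reads) in WT control and at 3.69, 3.48 and 3.94 in WT IL-4. It was at 13.9 to 14.5 RPKM in the 3 WT TGF-β libraries and at 17.6, 19.5 and 20.7 in WT TGF-β + IL-4. In KO it was between 2.32 and 5.18 RPKM in all 12 libraries. The KO libraries were thus far below WT wherever TGF-β was present, with a log2 change of −2.04 ± 0.14 (SE, n = 3 per group, limma adjusted p = 4.37e-05) under TGF-β + IL-4. Without TGF-β the gene did not tell the genotypes apart, with −0.21 ± 0.09 in control (limma adjusted p = 0.164). Relative depth, from the value of 1 read in low genes, ran from 0.794 to 1.66 across columns, and total read numbers are unknown. The 5 CD4 T cell markers found of 6 listed summed to 819 to 1205 RPKM, against at most 36.3 for CD8 T cells, 33.3 for B cells, 18.4 for myeloid cells, 6.22 for NK cells and 22.03 for erythroid cells, whose *Hbb-b1* was at 0 in every library.

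All 49 genes were transcribed in every library, and all 49 passed the filter of a mean of at least 1 RPKM in every comparison. RPKM is a level per length, so genes can be ranked by it. *Pcna*, the sliding clamp, had the highest mean over the 24 libraries at 424.9 RPKM, followed by *Mcm6* at 396 and *Mcm3* at 338. *Gins3*, a GINS subunit, had the lowest at 6.75 RPKM, below *Pole*, the catalytic subunit of polymerase ε, at 10.9. The mean of *Gins3* lay at the 74.6th percentile of the table and that of *Pcna* at the 99.0th. The widest spread between the highest and the lowest library belonged to *Tk1* (2.54 times), *Pola2* (2.43 times) and *Rrm2* (2.08 times), and the narrowest to *Gins4* (1.17 times). Over the 24 libraries the correlation of log2 levels between pairs of these genes had a median of 0.754 over 1176 pairs and was above 0 for 96.1% of pairs, which share the same libraries. *Pola2* stood apart, with a median correlation of −0.148 to the other 48.

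The start sites of these genes were open chromatin in each of the 4 DNase-seq lists. A DNase I hypersensitive site (DHS) lay within 500 bp of the start of 48 of the 49 genes in both controls and in both TGF-β + IL-4 cultures, and the same 48 genes had it in all 4 lists. The exception was *Lig1*, whose GENCODE vM1 start in mm9 is on chromosome 7 at 13862632, and in both control lists a DHS lay within 1000 bp of it. Over all 22380 protein-coding genes the share with a DHS was 45.7% in WT control and 44.3% in KO control, and 44.3% (WT) and 42.3% (KO) with both cytokines. Among 5687 genes with a mean of at least 6.75 RPKM, the lowest mean of the 49, it was 91.5%, 90.3%, 90.4% and 88.4%, in the same order. Ranked by fold enrichment within its list, the median DHS of these genes lay in the top 6.64%, 8.96%, 11.4% and 10.6%. *Mcm10* had one of the strongest, in the top 0.237%, 1.06%, 2.15% and 2.36%. *Tk1* had one of the weakest, at 56.7%, 66.3%, 51.5% and 74.4% in the same order, with its summit 254 bp inside the gene in WT control. With 1 library per condition no error can be given for these ranks, and the lists differ in length, from 27145 DHSs in KO TGF-β + IL-4 to 44298 in WT control.

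**Figure D1:**
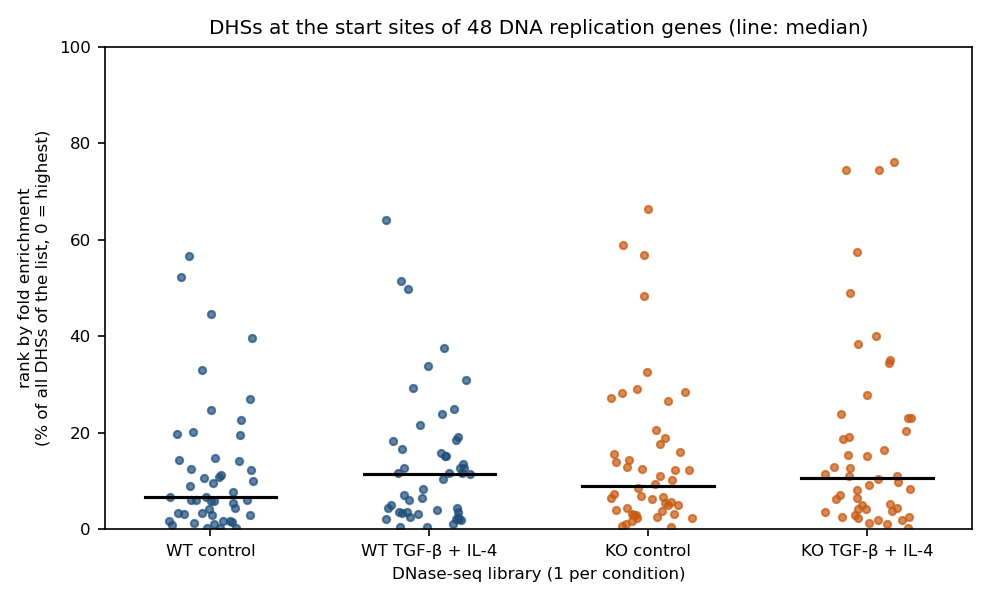
Rank by fold enrichment (y axis, percent of all DHSs of that list, 0 is the strongest) of the DHS at the start of each of 48 DNA replication genes (points) in the 4 DNase-seq libraries (x axis, 1 library per condition), with the median as a line. The medians lie between 6.64% and 11.4%, and single genes reach from 0.187% in WT control to 76.1% in KO TGF-β + IL-4.

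Promoter sequences of RefSeq (GRCm38.p6), a window from just before to just after the start, matched 40 of the 49 genes by symbol. A gene counted as matched if any of its promoters held the letters. The E2F letters TTTCCCGC, TTTGGCGC, TTTCGCGC or TTTGCCGC, on either strand and with overlapping matches counted apart, were in 15 of the 40 (37.5%). The share was 2.6% of all 27025 genes with a promoter, transcribed here or not, and the share among transcribed genes was not taken. The 15 were *Cdc6*, *Cdt1*, *Orc1*, *Mcm3*, *Mcm5*, *Mcm6*, *Mcm7*, *Gins3*, *Pola1*, *Pold1*, *Pold3*, *Pole2*, *Rfc3*, *Lig1* and *Uhrf1*. CCAAT was in 24 of 40 (60.0%) against 41.1% of all genes with a promoter, and the CHR letters TTTGAA, known from genes of G2 and mitosis, were in 5 of 40 (12.5%) against 20.2%. The 5 sequences below are the bases just before the start of 3 licensing genes with E2F letters and of *Tk1* and *Rrm2*, the nucleotide genes with the largest changes below, whose promoters held none. E2F letters are in capitals, and in *Mcm6* a pair of matches overlaps. They lie at chr1:128359706-128359865 (−) for *Mcm6*, chr11:98907991-98908150 (+) for *Cdc6*, chr4:108579294-108579453 (+) for *Orc1*, chr11:117826015-117826174 (−) for *Tk1* and chr12:24708094-24708253 (+) for *Rrm2*.
Mcm6: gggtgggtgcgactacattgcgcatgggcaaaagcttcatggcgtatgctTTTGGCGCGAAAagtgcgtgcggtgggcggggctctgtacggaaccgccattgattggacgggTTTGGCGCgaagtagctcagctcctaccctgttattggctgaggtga
Cdc6: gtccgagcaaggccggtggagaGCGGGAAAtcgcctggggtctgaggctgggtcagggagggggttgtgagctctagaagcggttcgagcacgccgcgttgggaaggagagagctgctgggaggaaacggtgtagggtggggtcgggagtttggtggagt
Orc1: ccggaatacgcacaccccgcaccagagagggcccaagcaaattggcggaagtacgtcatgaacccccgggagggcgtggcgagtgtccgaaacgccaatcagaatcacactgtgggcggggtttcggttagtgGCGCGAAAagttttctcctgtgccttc
Tk1: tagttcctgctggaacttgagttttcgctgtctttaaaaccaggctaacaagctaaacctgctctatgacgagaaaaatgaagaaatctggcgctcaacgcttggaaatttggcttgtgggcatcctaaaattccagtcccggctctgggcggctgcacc
Rrm2: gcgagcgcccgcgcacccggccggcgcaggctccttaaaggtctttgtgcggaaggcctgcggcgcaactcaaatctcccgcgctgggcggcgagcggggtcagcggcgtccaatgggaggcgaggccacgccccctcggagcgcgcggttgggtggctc
A match of letters is a description of the window and not a bound site.

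**Figure D2:**
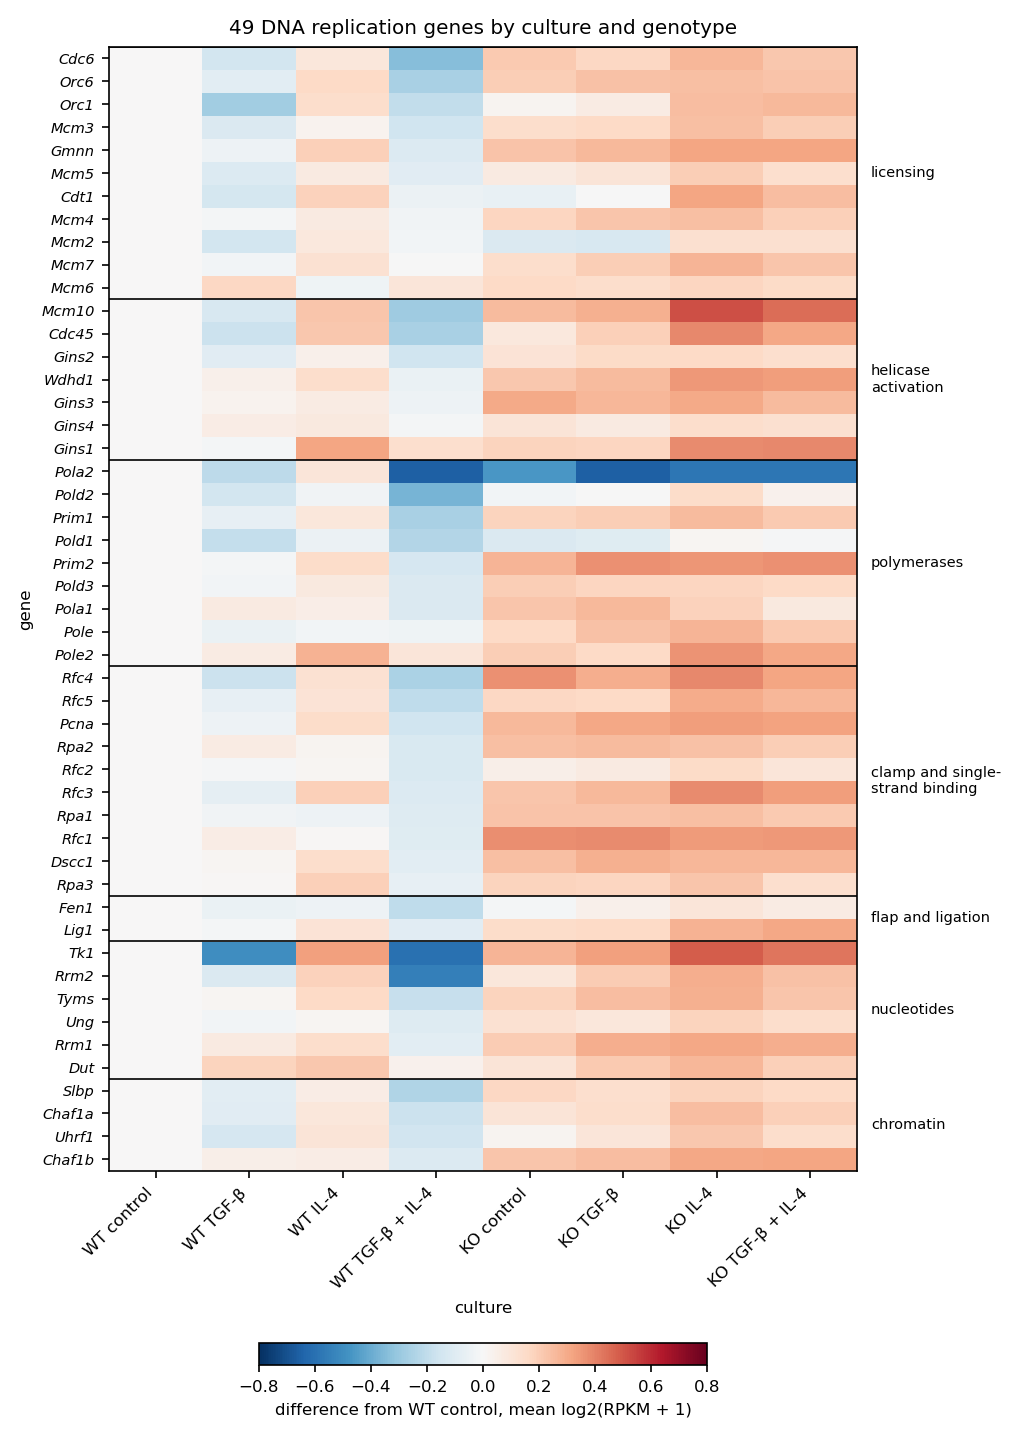
Difference of the group mean of log2(RPKM + 1) from WT control (colour) for 49 genes (rows, by role) in the 8 conditions (columns, 3 libraries each). WT TGF-β + IL-4 is the lowest of the 8 conditions for 39 genes and KO IL-4 the highest for 36.

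WT TGF-β + IL-4 had the lowest mean of the 8 conditions for 39 of the 49 genes, WT TGF-β for 7, WT control for 2 and WT IL-4 for 1. KO IL-4 had the highest mean for 36 genes. The summed level of the 49 genes was 4781, 4905 and 4597 RPKM in WT TGF-β + IL-4, and 5268, 5185 and 5376 in WT control. It was 5257, 4989 and 5027 RPKM in WT TGF-β and 5530.2, 5433 and 5878 in WT IL-4. In KO the 12 libraries lay between 5636 and 6223 RPKM, with no overlap with WT control, WT TGF-β or WT TGF-β + IL-4. In bulk samples fewer cells in S phase and less RNA per cell cannot be told apart.

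**Figure D3:**
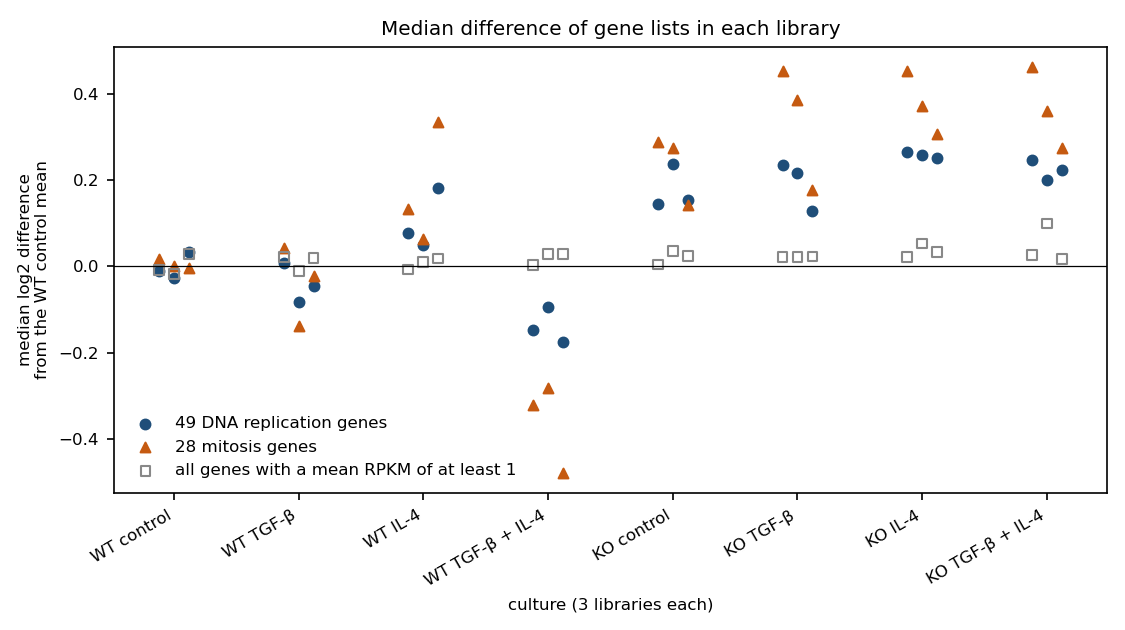
Median log2 difference from the WT control mean (y axis) in each library of the 8 conditions (x axis) for the 49 DNA replication genes (circles), 28 mitosis genes (triangles) and all genes with a mean of at least 1 RPKM (open squares). The 3 WT TGF-β + IL-4 libraries have the lowest circles, from −0.17 to −0.09, while the median of all genes stays between −0.02 and 0.10.

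In WT TGF-β + IL-4, the condition that makes Th9 cells, the estimated RPKM level of most replication genes was below that of WT control, mostly by little. These genes were correlated over the libraries, so their signs are not independent results. The median log2 change of the 49 genes was −0.12, with 45 below 0, while the median of all 9816 genes tested was 0.03. Called genes, at a Benjamini-Hochberg adjusted p under 0.01 in limma and a fold change over 1.5, were 2 of 49, both lower, against 2.84% of all genes called lower. At an adjusted p under 0.05 without a minimum of fold, 21 of 49 were lower and 0 higher, against 18.5% of all genes lower and 24.4% higher. Median-ratio scaling of the libraries moved the median of all genes from 0.03 to −0.03 and gave 34 of 49 at 0.05. The share of all genes under that scaling is not given here. In 28 of 49 all 3 libraries lay below all 3 control libraries, against 23.8% of all genes, and *Mcm6* was not among them. Leaving out WT TGF-β + IL-4 replicate 3 gave 1 call and 10 genes at 0.05, and leaving out WT control replicate 1 gave 1 and 11. In the 8 identified WT libraries, 3 genes were called lower and 17 were lower at 0.05, again without that share. Over all 3 libraries of each group the CD4 T cell markers summed to 1163 to 1205 RPKM under TGF-β + IL-4 and 922 to 1011 in control. The myeloid markers, 5 found of 6 listed, summed to 7.10 to 16.7 and 3.53 to 6.197 RPKM, with *Csf1r* at no more than 0.433 in any library, and the part of these in the result was not tested.

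The genes with the lowest ratios were *Pola2* and *Tk1*. *Tk1*, thymidine kinase of the salvage pathway, was at 69.0, 65.0 and 64.7 RPKM in WT control and at 43.9, 47.8 and 38.8 in WT TGF-β + IL-4. The groups did not overlap, and the log2 change was −0.60 ± 0.07 (SE, limma adjusted p = 0.00022). Leaving out either of the libraries named above took its fold below 1.5, with log2 changes of −0.52 and −0.57. *Pola2*, the B subunit that joins polymerase α to primase, was at 160.02, 168 and 178 RPKM in WT control and at 116, 98.7 and 106 in WT TGF-β + IL-4. Its log2 change of −0.66 ± 0.07 (limma adjusted p = 7.69e-05) was the largest of the 49 genes. *Rrm2*, the small subunit of ribonucleotide reductase, was at 199.6, 192 and 234 RPKM in WT control and at 146, 151 and 129 in WT TGF-β + IL-4. Its groups did not overlap either, and its change of −0.55 ± 0.08 (limma adjusted p = 0.00088) missed the fold limit.

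**Figure D4:**
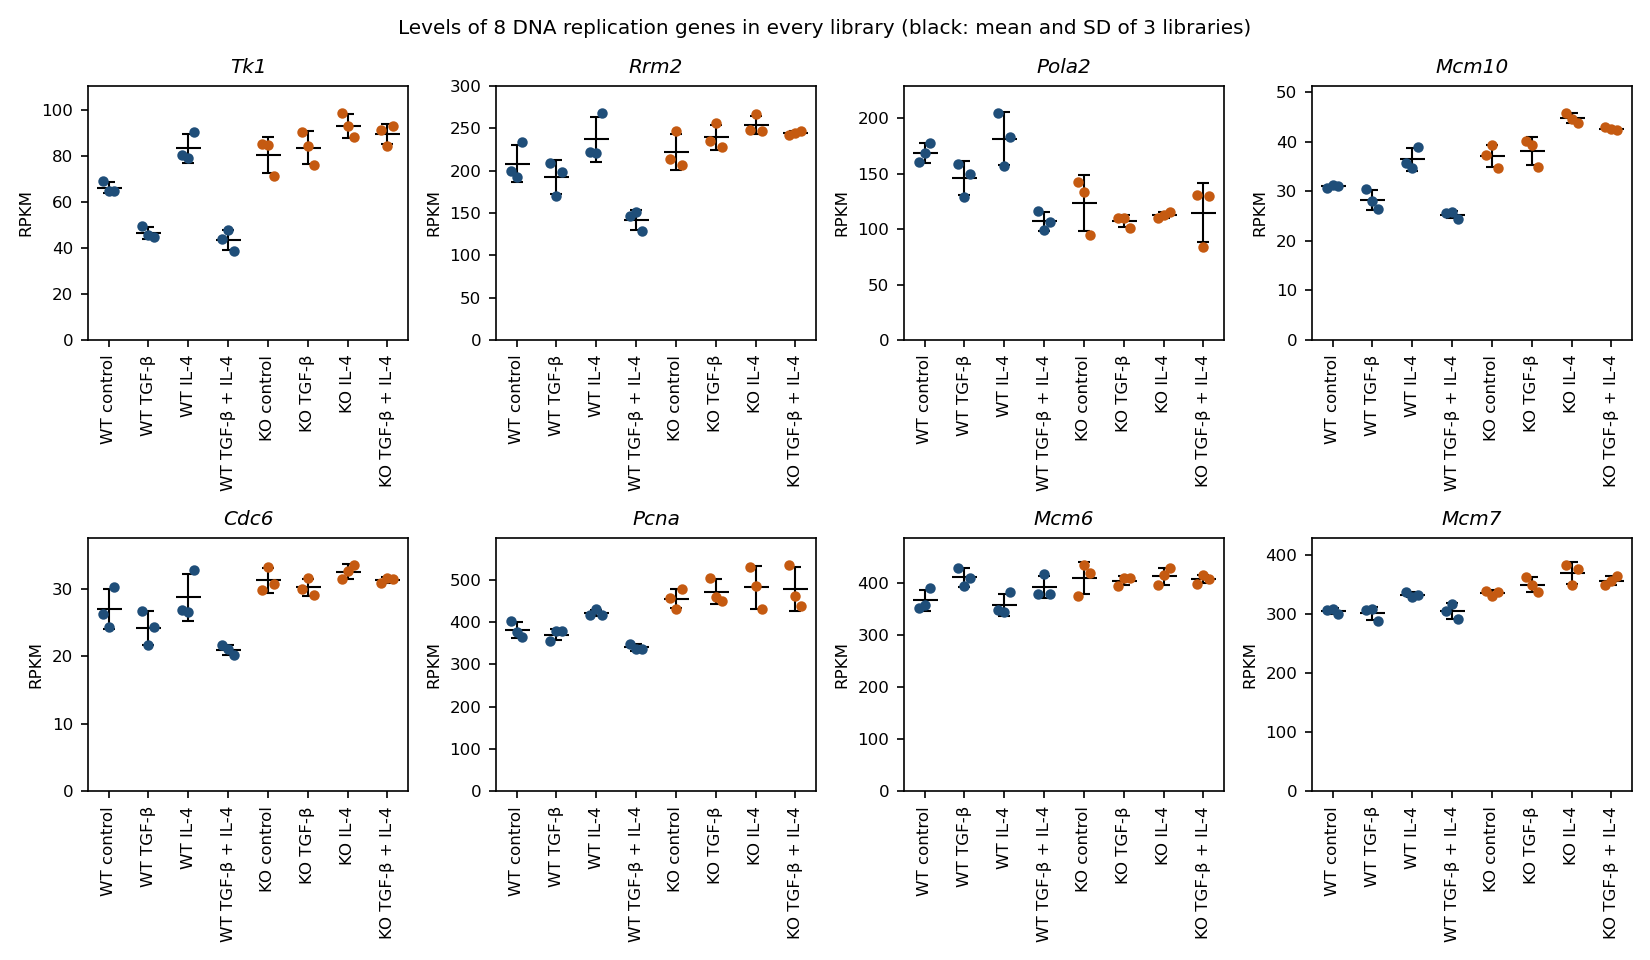
RPKM (y axis, from 0) of 8 DNA replication genes in each library of the 8 conditions (x axis, WT in blue, KO in orange), with mean and SD of 3 libraries in black. *Tk1* and *Rrm2* are lowest in WT TGF-β + IL-4, *Pola2* is lower in KO control than in WT control, and *Mcm6* and *Mcm7* vary little among the WT cultures.

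Within the licensing group, 4 of 11 genes were lower at an adjusted p under 0.05 in WT TGF-β + IL-4, against 18.5% of all genes. The group median was −0.09. *Cdc6*, a helicase loader, was at 26.3, 24.4 and 30.2 RPKM in control and at 21.6, 21.1 and 20.2 under TGF-β + IL-4 (−0.34 ± 0.08, limma adjusted p = 0.0066). *Orc6* and *Mcm3*, an origin recognition subunit and a helicase subunit, changed by −0.26 and −0.16, and *Orc1* by −0.20. The rest of the Mcm ring did not pass. *Mcm6*, the most abundant licensing gene, was at 353, 358 and 391 RPKM in control and at 379.6, 417 and 379.9 under TGF-β + IL-4 (0.10 ± 0.06, limma adjusted p = 0.23). *Mcm7* was at 307, 309 and 299 RPKM in control and at 305, 318 and 292 under TGF-β + IL-4, the smallest change of all 49 genes. Both groups of *Mcm6* and *Mcm7* overlapped.

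In helicase activation, 3 of 7 genes were lower at 0.05, against 18.5% of all genes. *Mcm10*, which activates the loaded helicase, was at 30.7, 31.3 and 31.1 RPKM in control and at 25.6, 25.8 and 24.4 under TGF-β + IL-4 (−0.29 ± 0.05, limma adjusted p = 0.0015). *Gins2* was at 102, 98.8 and 98.7 RPKM in control and at 89.4, 90.5 and 87.5 under TGF-β + IL-4 (−0.16 ± 0.04, limma adjusted p = 0.014). Neither gene had a library that crossed between the groups. *Cdc45*, the third to pass, changed by −0.26, while *Gins1*, *Gins3*, *Gins4* and *Wdhd1*, which ties the helicase to polymerase α, did not pass. *Gins4* was at 73.3, 72.5 and 77.2 RPKM in control and at 75.6, 72.0 and 73.0 under TGF-β + IL-4. Its libraries overlapped, with a change of −0.02 ± 0.05.

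Among the polymerases and primase, 4 of 9 genes were lower at 0.05, against 18.5% of all genes. *Pold2*, the second subunit of polymerase δ and the most abundant of the group, was at 169, 169.6 and 179 RPKM in control and at 140.0, 134 and 126 under TGF-β + IL-4 (−0.37 ± 0.05, limma adjusted p = 0.00053). *Pold1*, its catalytic subunit, and *Prim1*, the primase, changed by −0.23 and −0.26. *Pole* was at 9.54, 10.3 and 10.4 RPKM in control and at 9.37, 10.1 and 9.84 under TGF-β + IL-4, which overlap.

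All 10 genes of the clamp, its loaders and single-strand binding had a log2 change below 0. At 0.05, 3 passed, against 18.5% of all genes lower, which is not far from that share in so small a group. *Pcna* was at 402, 376 and 365 RPKM in control and at 349, 335 and 336 under TGF-β + IL-4 (−0.16 ± 0.05, limma adjusted p = 0.031). *Rfc4*, a clamp loader subunit, was at 119.8, 107 and 125 RPKM in control and at 94.2, 102 and 97.1 under TGF-β + IL-4 (−0.26 ± 0.06, limma adjusted p = 0.011). In both genes every TGF-β + IL-4 library was below every control library. *Rpa3*, the smallest subunit of the single-strand binding complex, was at 71.3, 68.3 and 71.9 RPKM in control and at 69.2, 64.6 and 68.1 under TGF-β + IL-4, and its groups overlapped. *Rfc5* was the third gene to pass, at −0.21.

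Of the 2 genes of the lagging strand, *Fen1*, the flap nuclease, was at 157, 151 and 170.0 RPKM in control and at 143, 145 and 127 under TGF-β + IL-4 (−0.20 ± 0.07, limma adjusted p = 0.033). *Lig1*, the ligase, was at 75.0, 72.4 and 74.9 RPKM in control and at 71.8, 70.4 and 66.2 under TGF-β + IL-4, with no overlap but an adjusted p of 0.151 in limma. In nucleotide supply, *Tyms*, thymidylate synthase, passed at 0.05 beside *Tk1* and *Rrm2*, with −0.19. *Dut*, which removes dUTP, was at 139, 136 and 127 RPKM in control and at 136, 144 and 131 under TGF-β + IL-4, with overlapping groups. In the chromatin group 3 of 4 passed, and for this and the groups before it the share of all genes lower was 18.5%. *Slbp*, which binds the stem-loop of histone mRNA, was at 138, 125 and 161 RPKM in control and at 117, 126 and 113 under TGF-β + IL-4 (−0.24 ± 0.09, limma adjusted p = 0.047), and here 1 library of each group crossed. *Chaf1b*, a subunit of the CAF-1 histone chaperone, was at 50.7, 48.5 and 52.6 RPKM in control and at 47.0, 46.7 and 46.3 under TGF-β + IL-4. Its groups did not overlap, with an adjusted p of 0.087 in limma.

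TGF-β + IL-4 was next compared with IL-4 alone, which asks what TGF-β does when IL-4 is present. Here 3 of 49 were called lower, *Tk1*, *Pola2* and *Rrm2*, against 3.21% of all genes called lower, and 37 were lower and 0 higher at an adjusted p under 0.05, against 21.1% and 23.8% of all genes. The median log2 change was −0.20, with 48 of 49 below 0. In 41 of 49 all libraries lay below those of IL-4, against 26.4% of all genes. The CD4 T cell markers summed to 1163 to 1205 RPKM with both cytokines and 863 to 888 with IL-4, the myeloid markers to 7.10 to 16.7 and 2.71 to 4.37, the NK cell markers to 1.73 to 2.34 and 3.74 to 6.22, and the CD8 markers to 25.3 to 26.7 and 29.9 to 36.3, while the B cell and erythroid sums overlapped. Their part was not tested. *Tk1* was at 80.4, 79.1 and 90.6 RPKM in WT IL-4 (log2 change −0.92 ± 0.08, limma adjusted p = 2.62e-05). *Rrm2* was at 222, 221 and 268 RPKM in WT IL-4 (−0.73 ± 0.08, limma adjusted p = 0.00015). *Pola2* was at 204, 157 and 183 RPKM in WT IL-4 (−0.75 ± 0.09, limma adjusted p = 0.00021). All 3 were above every TGF-β + IL-4 library given above. *Mcm6* was again the exception in sign, at 348, 345 and 383 RPKM in WT IL-4, with a change of 0.13 ± 0.06. Leaving out WT TGF-β + IL-4 replicate 3 gave 23 genes at 0.05 instead of 37.

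Each cytokine was also compared alone with control. WT IL-4 was above WT control for 43 of 49 genes, with a median log2 change of 0.10, but 0 were called, against 1.29% of all genes called in either direction, and 2 were higher at 0.05, *Tk1* (0.33 ± 0.06) and *Pole2* (0.28 ± 0.06), against 2.64%. *Dut* was next (0.21 ± 0.05, limma adjusted p = 0.0517). In 21 of 49 every IL-4 library was above every control library, against 12.9% of all genes. In limma 16 of the 49 had an unadjusted p under 0.05. The share of all genes at that limit is not given here or in the comparisons below, so such counts cannot be set against it. WT TGF-β was below WT control for 35 of 49 genes with a median of −0.04. Again 0 were called (12 at an unadjusted p under 0.05 in limma), against 5.71% of all genes called in either direction, and at 0.05 *Tk1*, *Pold1* and *Pold2* were lower and *Dut* was higher, against 8.15% and 12.2% of all genes. *Tk1* was at 49.6, 45.6 and 44.9 RPKM in WT TGF-β, below every control library (−0.50 ± 0.05, limma adjusted p = 0.00049). *Dut* was at 155, 154 and 147 RPKM, above every control library (0.18 ± 0.05, limma adjusted p = 0.039). Leaving out single libraries took the 4 genes at 0.05 for TGF-β to between 1 and 3, and the 2 for IL-4 to between 0 and 1. The count for TGF-β was 1 without WT TGF-β replicate 1 or 2 or WT control replicate 1, and that for IL-4 was 0 without any 1 of the control replicates or WT IL-4 replicate 1. Against control, the CD8 markers summed to 16.6 to 17.3 RPKM with TGF-β, 29.9 to 36.3 with IL-4 and 24.8 to 26.9 in control, and the NK cell markers to 0.558 to 0.802, 3.74 to 6.22 and 2.33 to 2.53. The B cell markers with TGF-β (10.9 to 13.1 against 14.4 to 22.5) and the CD4 markers with IL-4 (863 to 888 against 922 to 1011) were also apart from control, and the part of these was not tested.

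Against TGF-β alone, which asks what IL-4 adds, WT TGF-β + IL-4 had 0 of 49 genes called in limma, against 3.03% of all genes called in either direction, with 20 of 49 at an unadjusted p under 0.05. At an adjusted p under 0.05, 6 were lower, *Pola2* (−0.44 ± 0.08), *Rrm2* (−0.43 ± 0.08), *Pold2*, *Rpa2*, *Orc6* and *Tyms*, against 9.1% of all genes. In 21 of 49 every library lay below every TGF-β library, against 17.7% of all genes. *Rrm2* was at 209, 170.1 and 199 RPKM in WT TGF-β, and every TGF-β + IL-4 library was below these. *Tk1* was already low in WT TGF-β and its libraries overlapped those of TGF-β + IL-4 (−0.10 ± 0.08, limma adjusted p = 0.364). Leaving out a single library moved this count. It was 3 without replicate 3 of TGF-β + IL-4 or replicate 1 of TGF-β, and 13 without replicate 2 of TGF-β. With both cytokines the CD4 markers (1163 to 1205 against 1010 to 1020 RPKM), CD8 markers (25.3 to 26.7 against 16.6 to 17.3), B cell markers (15.7 to 33.3 against 10.9 to 13.1) and NK cell markers (1.73 to 2.34 against 0.558 to 0.802) all summed higher than with TGF-β, and their part was not tested.

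Whether the change with both cytokines differed from the sum of the changes with each was tested as an interaction in WT. It was below 0 for 46 of 49 genes, with a median of −0.21, where the median of all genes was close to 0. In limma 0 of 49 were called, against 1.77% of all genes called in either direction, with 26 at an unadjusted p under 0.05. At an adjusted p under 0.05, 12 were lower and 0 higher, against 3.96% and 6.96% of all genes. *Dut* had −0.36 ± 0.07 (limma adjusted p = 0.0062). Its change from control was 0.18 with TGF-β alone and 0.21 with IL-4 alone (limma adjusted p = 0.0517), and it was close to control with both. *Rrm2* had −0.62 ± 0.14 (limma adjusted p = 0.018) and *Tk1* −0.43 ± 0.10 (limma adjusted p = 0.023). The others were *Orc6*, *Mcm10*, *Pcna*, *Tyms*, *Rfc3*, *Pola2*, *Rpa3*, *Cdc45* and *Gmnn*, the licensing inhibitor geminin. Without WT TGF-β + IL-4 replicate 3 the count was 3, it was 5 without WT TGF-β replicate 1, and 6 without replicate 3 of WT IL-4 or of WT TGF-β. Leaving out replicate 2 of WT IL-4 or of WT TGF-β gave 1 call.

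Between KO TGF-β and KO control 0 of 49 were called in limma and 0 passed at 0.05, against 0.0105% and 0.0314% of all genes, and 0 had an unadjusted p under 0.05. The smallest unadjusted p values in limma were those of *Rrm1* (0.13), *Cdc45* (0.132) and *Prim2* (0.133). The 95% intervals of the 49 log2 changes lay within −0.49 to 0.29. *Tk1* was at 85.3, 84.8 and 71.3 RPKM in KO control and at 90.4, 84.6 and 76.0 in KO TGF-β, which overlap. *Rrm2* was at 214, 247 and 206 RPKM in KO control and at 235, 256 and 228 in KO TGF-β, which overlap too.

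KO TGF-β + IL-4 against KO control had 0 calls in limma, against 1.92% of all genes called in either direction, with 5 of 49 at an unadjusted p under 0.05. *Cdt1*, a helicase loader, was the only gene past 0.05, at 0.31 ± 0.06 (limma adjusted p = 0.035), against 2.75% of all genes higher, and *Mcm2* (0.25 ± 0.07) and *Cdc45* (0.23 ± 0.07) came next. It was at 62.1, 57.5 and 61.8 RPKM in KO control and at 73.5, 73.5 and 78.4 in KO TGF-β + IL-4, without overlap. It did not pass without any 1 of KO control replicates 1, 2 and 3 or KO TGF-β + IL-4 replicates 1 and 3. The 95% intervals of the 49 genes lay within −0.57 to 0.46. *Tk1* was at 91.3, 84.5 and 93.1 RPKM in KO TGF-β + IL-4 and *Rrm2* at 242, 245 and 246, and both overlapped KO control. KO IL-4 against KO control had 0 calls (13 at an unadjusted p under 0.05 in limma), against 2.51% of all genes called in either direction, and 4 genes higher at 0.05, against 4.12%. These were *Cdt1* (0.37 ± 0.07), *Cdc45*, *Mcm2* and *Mcm10*. The count was 2 without KO control replicate 1 or 3 or KO IL-4 replicate 2, and 1 without KO IL-4 replicate 1 or 3. In KO control the CD8 markers summed to 14.8 to 16.7 RPKM, against 26.3 to 28.3 with both cytokines and 26.3 to 27.2 with IL-4, the B cell markers to 9.07 to 10.5 against 14.8 to 26.1 and 11.9 to 13.5, and the NK cell markers to 1.80 to 2.16 against 3.22 to 4.89 and 2.88 to 4.33. The myeloid markers with both cytokines (2.11 to 4.39 against 0.232 to 1.70) and the CD4 markers with IL-4 (819 to 915 against 959 to 1038) were apart from KO control too, and the part of these was not tested.

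KO was then compared with WT in the same culture, where tamoxifen may differ too, as said above. In control, 0 of 49 genes were called in limma, against 2.46% of all genes called in either direction, with 28 at an unadjusted p under 0.05. At an adjusted p under 0.05, 11 were higher and 0 lower, against 5.64% and 6.98% of all genes. In 28 of 49 every KO library was above every WT library, against 19.7% of all genes. The 11 held 5 clamp or loader genes and *Rpa2*, with *Rfc1* (0.37 ± 0.07), *Rfc4* (0.37 ± 0.08) and *Pcna* (0.26 ± 0.06) among them. *Pcna* was at 457, 431 and 477 RPKM in KO control, above every WT control library. *Rfc4* was at 139, 158 and 156 RPKM in KO control, also above every WT control library. The count rested on single libraries: it was 0 without WT control replicate 1, 1 without replicate 2, and 4, 2 and 7 without KO control replicates 1, 2 and 3. In 3 genes, *Mcm2*, *Pold1* and *Pola2*, every KO library was below every WT library, against 15.7% of all genes. *Mcm2* (−0.12 ± 0.05) and *Pold1* (−0.12 ± 0.05) had limma adjusted p values of 0.166 and 0.175. *Pola2* was at 142, 134 and 94.6 RPKM in KO control, below every WT control library (−0.47 ± 0.14, limma adjusted p = 0.061). In the same libraries the 2 CD8 T cell markers summed to 14.8 to 16.7 RPKM in KO and 24.8 to 26.9 in WT, the 4 B cell markers to 9.07 to 10.5 and 14.4 to 22.5, the myeloid markers to 0.232 to 1.70 and 3.53 to 6.197, the NK cell markers to 1.80 to 2.16 and 2.33 to 2.53, and the erythroid markers to 0.015 to 0.070 and 0.152 to 22.03, while the CD4 sums overlapped. Their part was not tested.

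Under TGF-β alone, 1 of 49 was called higher in KO, *Tk1*, against 3.15% of all genes, and 34 were higher and 1 lower at 0.05, against 18.9% and 20.0%. In 38 of 49 every KO library was above every WT library, against 26.1% of all genes. The CD4 markers summed to 941 to 1004 RPKM in KO and 1010 to 1020 in WT here, the CD8 markers to 14.3 to 15.2 and 16.6 to 17.3, the B cell markers to 7.89 to 10.5 and 10.9 to 13.1, the NK cell markers to 1.66 to 2.70 and 0.558 to 0.802, and the erythroid markers to 0.056 to 0.081 and 0.128 to 0.235, while the myeloid sums overlapped. Their part was not tested. *Tk1* had a log2 difference of 0.83 ± 0.07 (limma adjusted p = 4.08e-05). *Pola2* was the gene lower in KO (−0.44 ± 0.08, limma adjusted p = 0.0027), at 110.0, 110.3 and 101 RPKM against 159, 129 and 150.0 in WT. Under IL-4 alone *Pola2* was the only call. It was at 109.7, 113 and 116 RPKM in KO against 204, 157 and 183 in WT (−0.67 ± 0.09, limma adjusted p = 0.0011), and 2.61% of all genes were called lower. There 9 genes were higher at 0.05 and *Pola2* was lower, against 4.76% and 7.22% of all genes. In 23 of 49 every KO library was above every WT library, against 19.6% of all genes. Without WT IL-4 replicate 1 the change of *Pola2* was −0.58 (limma adjusted p = 0.0027), just under the fold limit, and 2 genes in all passed at 0.05, and without WT IL-4 replicate 2 or 3 the number was 4 or 18. Without KO IL-4 replicate 1 or 3 it was 5. With no filter on low genes the change of *Pola2* was −0.67 as before, with a limma adjusted p of 0.015. Of the marker sums, those of CD8 T cells were apart between the genotypes here, at 26.3 to 27.2 RPKM in KO and 29.9 to 36.3 in WT, and their part was not tested.

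Under TGF-β + IL-4 the genotypes stood furthest apart. All 49 genes were higher in KO, with a median log2 difference of 0.35, where the median of all genes was 0.01. In limma 3 were called higher, *Tk1*, *Rrm2* and *Mcm10*, against 2.71% of all genes, and 40 were higher at 0.05, against 18.7%. Without WT TGF-β + IL-4 replicate 2 or KO TGF-β + IL-4 replicate 2 the number called was 5. In 45 of 49 every KO library was above every WT library, against 26.9% of all genes. *Tk1* had the largest difference (1.03 ± 0.08, limma adjusted p = 8.31e-05), followed by *Rrm2* (0.78 ± 0.07, limma adjusted p = 0.00012). *Mcm10* was at 43.0, 42.7 and 42.4 RPKM in KO against 25.6, 25.8 and 24.4 in WT (0.73 ± 0.05, limma adjusted p = 5.02e-05). By role, 9 of 11 licensing genes, 4 of 7 of helicase activation, 6 of 9 polymerase genes, all 10 of the clamp, loader and single-strand group, both lagging-strand genes, 5 of 6 nucleotide genes and all 4 chromatin genes passed at 0.05. *Mcm6* was the licensing gene with the smallest difference (0.06 ± 0.06, limma adjusted p = 0.487), at 399, 416 and 409 RPKM in KO. *Pola2* was at 130.2, 84.1 and 129.6 RPKM in KO, which overlaps WT, so that its lower level in KO under the other cultures was not seen here (0.08 ± 0.16). In these libraries the CD4 T cell markers summed to 853 to 978 RPKM in KO against 1163 to 1205 in WT, the myeloid markers to 2.11 to 4.39 against 7.10 to 16.7, the 3 NK cell markers to 3.22 to 4.89 against 1.73 to 2.34, and the 4 erythroid markers to 0.027 to 0.088 against 0.128 to 0.345. The B cell and CD8 sums overlapped. The part of these in the difference was not tested.

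**Figure D5:**
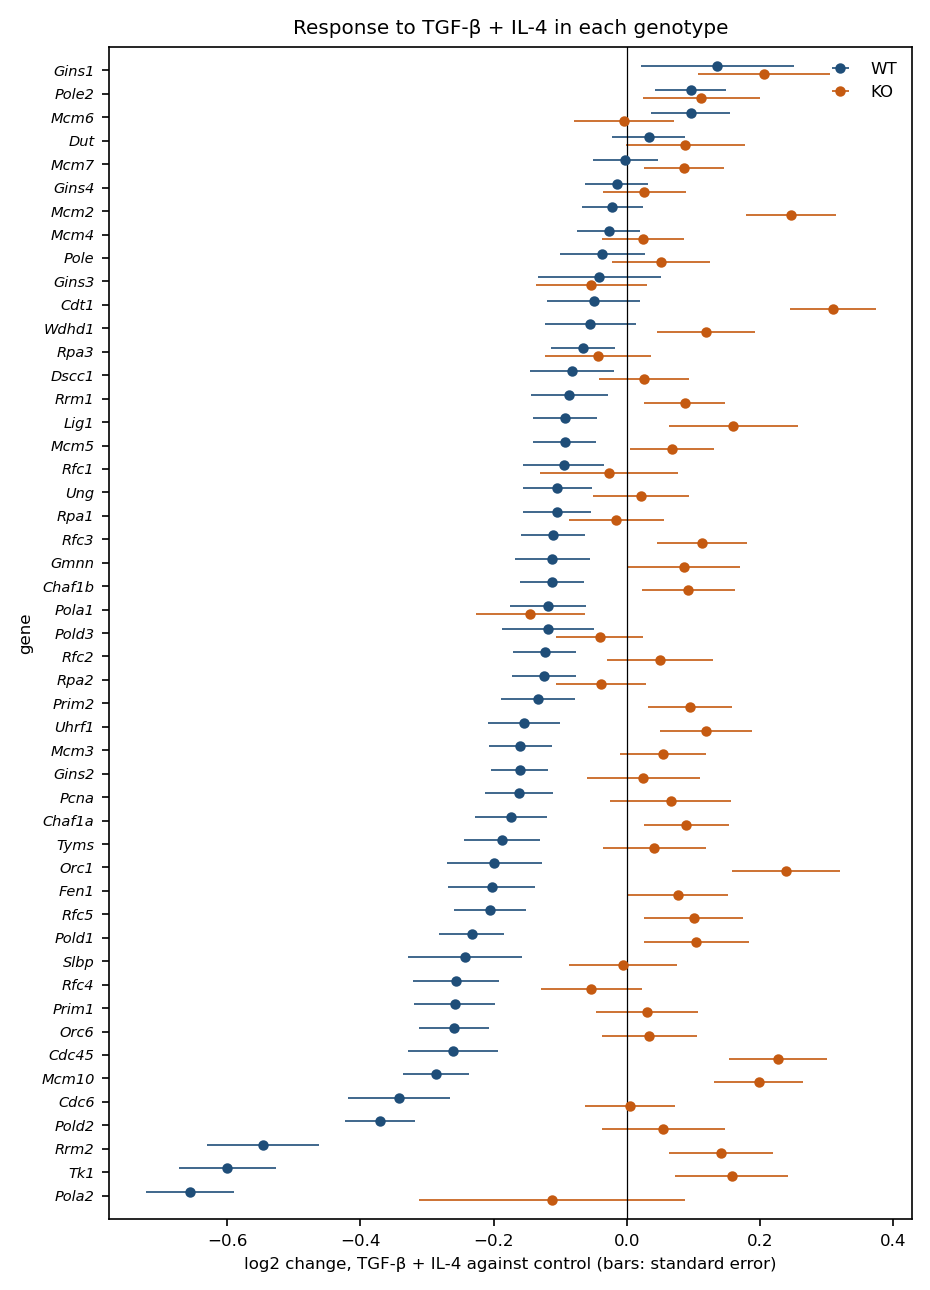
Log2 change from control to TGF-β + IL-4 (x axis, limma estimate, bars: standard error, 3 libraries per condition) in WT (blue) and KO (orange) for each of the 49 genes (y axis, ordered by the WT change). The KO point lies to the right of the WT point for 46 genes, and *Tk1*, *Rrm2* and *Pola2* have the lowest WT points, at −0.60, −0.55 and −0.66, with KO points at 0.16, 0.14 and −0.11.

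The difference of these responses was tested as an interaction of genotype and TGF-β + IL-4, which is not the same as a call in WT and none in KO. It was above 0 for 46 of 49 genes with a median of 0.20. *Tk1* (0.76 ± 0.12, limma adjusted p = 0.0011) and *Rrm2* (0.69 ± 0.12, limma adjusted p = 0.0029) were called, against 1.4% of all genes called higher. At 0.05, 13 were higher and 0 lower, against 6.79% and 7.19% of all genes, among them *Mcm10* (0.48 ± 0.07), *Cdc45*, *Orc1*, *Orc6*, *Cdc6*, *Cdt1*, *Mcm2*, *Pold1*, *Pold2*, *Chaf1a* and *Rfc5*. *Pola2* had a wide interval, from 0.03 to 1.06. Leaving out WT TGF-β + IL-4 replicate 3 gave 4, KO control replicate 3 gave 6, and WT control replicate 1, WT TGF-β + IL-4 replicate 1 or KO TGF-β + IL-4 replicate 3 gave 7. WT control replicate 2 or KO control replicate 1 gave 8. With the replicate number as a block, *Rrm2* was no longer called (limma adjusted p = 0.0193) and *Tk1* still was (limma adjusted p = 0.0067).

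A further 36 genes of replication and its surroundings were listed apart from the 49. Between WT TGF-β + IL-4 and WT control, 8 were lower and 1 higher at an adjusted p under 0.05 in limma, against 18.5% and 24.4% of all genes, with a median log2 change of −0.09. Between KO and WT under TGF-β + IL-4, 19 were higher and 1 lower, against 18.7% and 15.8% of all genes, with a median of 0.30. The gene that went the other way each time was *Pold4*, the small subunit of polymerase δ. It was at 16.3, 20.8 and 21.8 RPKM in WT control (from lowest to highest), at 32.7, 32.9 and 36.3 in WT TGF-β + IL-4 and at 18.2, 19.5 and 21.1 in KO TGF-β + IL-4. WT TGF-β + IL-4 was above all others without overlap, with a log2 change of 0.77 ± 0.10 from WT control (limma adjusted p = 0.00031), while *Pold2* of the same enzyme fell. All 8 E2F family genes had a log2 change below 0 in WT TGF-β + IL-4 compared with WT control. At 0.05, 3 passed, against 18.5% of all genes lower: *E2f2* (−0.52 ± 0.17), *E2f8* (−0.31 ± 0.08) and *E2f7* (−0.22 ± 0.08). Their levels were low. *E2f7* was at 1.51 to 1.70 RPKM in WT control and 1.11 to 1.29 with both cytokines, near the filter of 1 RPKM. *E2f2* spread widely in WT control, at 3.21 to 6.32 RPKM against 2.80 to 3.16, and *E2f8* was at 6.36 to 6.66 against 4.62 to 5.51. *E2f8*, a repressor of the family, was the 1 of 8 called higher in KO under TGF-β + IL-4 (0.71 ± 0.08, limma adjusted p = 0.0006), against 2.71% of all genes.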

How the data were processed

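The deposited RPKM values, 24 columns for 24089 genes, were made by the authors from Smart-seq2 reads mapped to mm9 with Bowtie2, after removal of low-quality and redundant alignments, with edgeR; tool versions are not given in the sources used here. The DNase-seq lists were deposited by the authors as MACS2 narrow peaks (DHSs) called in each library, with a fold enrichment over background and a −log10 q for each. RPKM are not counts, so log2(RPKM + 1) of genes with a mean of at least 1 RPKM was tested with limma 3.58.1 (R 4.3.3, trended variance), only the compared groups entering each fit. Fold changes are on that scale, which understates those of low genes, and ± values beside log2 changes are standard errors, n = 3 per group. Called means an adjusted p (Benjamini-Hochberg, all genes tested) under 0.01 and a fold change over 1.5. For counts at an unadjusted p under 0.05 the share of all genes is not given. The code was tested on simulated data. Python 3.11.15, numpy 2.4.6, pandas 2.3.3 and matplotlib 3.10.9 made the summaries. Removal of redundant reads can lower the values of highly expressed genes most, and depth limits low ones.

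The 49 genes and all lists were chosen with earlier results of these data known. Genes named in each role are the most abundant and those with the largest and smallest change between WT TGF-β + IL-4 and WT control; per comparison the called genes, or the 3 genes of smallest unadjusted p where fewer than 3 were called, were added, and others named were chosen after their values were seen. The labels give replicate numbers without saying what they mark, so the fits have no block, and p-values measure only the spread between these libraries, which may be technical. Alternatives were a pseudocount of 0.1, no filter, median-ratio scaling, all libraries in 1 fit, a replicate block, each library left out, columns as headed and, for DHSs, other limits.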

Additional observations from a re-analysis of the deposited data

Results flagged for a closer look

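The change from control to TGF-β + IL-4 differed between WT and KO by a test of the difference for a pair of genes. For *Tk1* the difference of log2 changes was 0.7572 (limma adjusted p = 0.0011), and for *Rrm2* it was 0.6873 (limma adjusted p = 0.0029). Both were lower with the cytokines in each of the 3 WT libraries, and neither passed in KO. With the replicate number as a block, the call of *Rrm2* was lost (limma adjusted p = 0.0193) and that of *Tk1* was kept. The KO columns could not be matched to read counts, and the part of that in the difference was not tested.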

How the results depend on the processing

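A pseudocount of 0.1 lost no call and moved no count by over 1.5 times, and the other DHS limits moved none that far. The pseudocount reversed no direction among some named genes, the only ones whose direction was followed. Read as headed, the columns gave 0 called genes in all comparisons and 0 genes at an adjusted p under 0.05 (limma), except 1 for KO against WT in control and a count within 1.5 times for KO against WT under TGF-β; 4 genes reversed, *Dut* with TGF-β in WT (−0.0648), *Tk1* with IL-4 in WT (−0.0559), *Pola2* between WT TGF-β + IL-4 and IL-4 (0.0258) and *Cdt1* with IL-4 in KO (−0.0253). With an adjusted p under 0.05 and no fold minimum the called counts were 4, 2, 21, 37 and 6 for WT cultures with TGF-β, IL-4 or both against control, and with both against IL-4 and against TGF-β, 4 and 1 for KO cultures with IL-4 or both against control, 11, 35, 10 and 40 for KO against WT in control, TGF-β, IL-4 and both, and 12 and 13 for the interactions in WT and with genotype. The counts below are at 0.05, and the share of all genes under each alternative is not given here. The 8 identified WT libraries gave 1 for TGF-β, 0 for IL-4 and 16 for TGF-β + IL-4 against TGF-β. All 24 libraries in 1 fit gave 4 (WT IL-4), 7 (KO IL-4), 4 (KO TGF-β + IL-4), 23 (KO against WT, control) and 16 (IL-4), and 1 call in the WT interaction. Median-ratio scaling, which moved the median of all genes by at most 0.0534 (log2, lower), gave 34 for WT TGF-β + IL-4 against control, 11 against TGF-β and 0 in KO against control. Without the filter the counts were 2 (WT TGF-β), 0 (WT IL-4), 1 (KO IL-4), 5 (KO against WT, control) and 6 (WT interaction), and the *Pola2* call under IL-4 was lost, leaving 0, with its change still at −0.67 (adjusted p = 0.015). The labels do not say that a replicate number pairs libraries. Same-numbered libraries had median correlations of deviations of 0.001, 0.093 and 0.134 in WT and 0.265, −0.031 and 0.046 in KO, against −0.032 and −0.123 for different numbers, and 8 of 12 WT and 10 of 12 KO libraries correlated best with their own number. With a replicate block the counts were 11 (WT TGF-β), 4 (WT IL-4), 0 (KO TGF-β + IL-4) and 5 (genotype interaction). In that interaction *Tk1* was the 1 call (limma adjusted p = 0.0067), and the call of *Rrm2* was lost (limma adjusted p = 0.0193). Leaving out 1 library gave 0 called and 1 to 3 at 0.05 for WT TGF-β, 0 and 0 to 1 for WT IL-4, 1 to 3 and 10 to 21 for WT TGF-β + IL-4 against control, 3 and 23 to 35 against IL-4, 0 and 3 to 13 against TGF-β. In KO it gave 0 and 0 for TGF-β, 0 and 1 to 4 for IL-4, 0 and 0 to 1 for both. For KO against WT it gave 0 and 0 to 8 (control), 1 and 24 to 34 (TGF-β), 0 to 1 and 2 to 18 (IL-4) and 3 to 5 and 28 to 41 (both), and for the interactions 0 to 1 and 3 to 15 (WT) and 2 and 4 to 18 (genotype). The causes were not tested.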

Other observations

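Genes of mitosis, which act after replication, moved further than the replication genes in the same libraries. Of 28 mitosis genes, 21 were lower at an adjusted p under 0.05 in limma in WT TGF-β + IL-4 against WT control. The share of all genes was 18.5%, and the median log2 change of the 28 was −0.35. The called ones, against 2.84% of all genes called lower, were *Cenpf* (−0.68 ± 0.08), a kinetochore protein, *Ccnb1* (−0.67 ± 0.09), cyclin B1, and *Aurkb* (−0.60 ± 0.06), a mitotic kinase. Compared with IL-4 alone 13 were called lower, against 3.21% of all genes, with a median of −0.54. Under TGF-β + IL-4, 20 of 28 were called higher in KO than in WT, against 2.71% of all genes, with a median of 0.71. KO TGF-β + IL-4 compared with KO control had 0 called and 0 at 0.05 (2 at an unadjusted p under 0.05 in limma). The shares of all genes there were 1.92% and 4.21% in either direction. The interaction with genotype was called, above 0, for 7 of 28, against 1.4% of all genes. *Cenpf* differed from the rest in being called lower in KO than in WT under IL-4 (−0.60 ± 0.10, limma adjusted p = 0.0041), against 2.61% of all genes.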
